A study of Mus musculus with 6 samples.

Results

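A set of 10 secreted factors that nourish retinal neurons or shape retinal vessels was followed through libraries of sorted mouse retinal cells. The set held Vegfa, Serpinf1, Fgf1, Fgf2, Lif, Cntf, Bdnf, Igf1, Igfbp5 and Pdgfa, matched by gene symbol, which gave 10 of the 55573 genes in the count table. The libraries labelled dKO (n = 3) came from C57BL/6 mice with floxed Myh9 and Myh10, whose eyes had received AAV2-Cre, a viral vector carrying a recombinase, by injection into the vitreous 2 weeks earlier. Those labelled WT (n = 3) came from mice of the same Myh9/10 double-floxed genotype and strain after AAV2-GFP, so both groups carried the floxed alleles and a viral vector. Each library held RNA of 3 retinas from 3 mice, purified by FACS as retinal ganglion cells (RGCs), which send the eye's output to the brain along the optic nerve. The labels name neither the promoter that drove Cre nor the age of the mice, and the comparison asks how sorted RGCs differ after deletion of the nonmuscle myosin II heavy chains.

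Vegfa is the main signal for new retinal vessels and is released by Müller glia and astrocytes when oxygen is low, while Serpinf1 encodes PEDF, a factor that restrains vessel growth and protects neurons. Fgf1 and Fgf2 are fibroblast growth factors that act on receptor tyrosine kinases. Lif and Cntf act through the shared receptor chain gp130 and STAT3, and Cntf is widely used to drive RGC survival and axon regrowth. Bdnf, a neurotrophin, acts on TrkB, the product of Ntrk2. Igf1 is made in the retina largely by microglia, Igfbp5 binds and modulates insulin-like growth factors, and Pdgfa attracts astrocytes, which carry its receptor Pdgfra.

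Depth and cell make-up set how far these genes could be read. Total counts were 4569880 to 5634316 in the dKO-labelled and 4730540 to 6146226 in the WT-labelled libraries, but the ribosomal RNA row CT010467.1 took 64.2% to 91.2% and 90.2% to 92.8% of them, and only 453327 to 1636581 and 346037 to 499313 counts lay outside it. The highest value belonged to dKO replicate 3, whose ribosomal RNA share was the lowest. The sort label was not borne out by the marker sums. All RGC markers on a list of 13 had a count, yet their summed level was 37.9 to 39.1 CPM in the dKO-labelled and 26.7 to 32.3 CPM in the WT-labelled libraries. Müller glia markers summed to 2882 to 3052 and 2849 to 2929 CPM, led by Glul and Clu. Microglia markers summed to 691 to 719 and 671 to 737 CPM, and rod markers to 349 to 434 and 186 to 211 CPM. The sums of astrocyte, bipolar and pericyte markers also exceeded that of RGC markers. Those of cone, amacrine, endothelial, pigment epithelium, T cell and red blood cell markers lay below it. Of the defining RGC transcription factors, Pou4f1 had 13 counts in the dKO-labelled and 1 in the WT-labelled libraries, and Pou4f2 had 7 and 0. The factors below are therefore described for the sorted material as a whole. CPM here is a count relative to the TMM-scaled library size, with ribosomal RNA counted in that size. Myh9 had 63.7, 66.2 and 58.2 CPM in the dKO-labelled libraries and 63.6, 68.4 and 60.7 CPM in the WT-labelled ones. Myh10 had 19.2, 20.6 and 14.2 CPM and 19.9, 19.96 and 16.3 CPM. Neither targeted gene was detectably lower in the libraries labelled dKO (edgeR adjusted p = 0.908 for Myh9 and 0.735 for Myh10), so every direction below is that of the libraries so labelled. The labels do not say which exons are floxed, so counts over whole genes do not by themselves check the deletion. In bulk libraries, fewer cells of a type and less RNA per cell cannot be told apart.

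Transcripts of the factors were scarce, and Vegfa, Igfbp5 and Fgf2 held most of them. The 10 genes together had 1219 counts, and these 3 took 78.8% of them. As a share of counts outside the ribosomal RNA row, the set took 0.0335%, 0.0274% and 0.0293% in dKO replicates 1 to 3 and 0.0320%, 0.0315% and 0.0349% in WT replicates 1 to 3, so the groups overlapped. Only Vegfa, Igfbp5 and Fgf2 were abundant enough to pass the low-count filter and be tested. The other 7 had between 1 and 97 counts over all libraries.

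Levels can be compared between genes after division by the length of their merged exons. Vegfa averaged 2.57 CPM per kilobase in the dKO-labelled and 2.85 in the WT-labelled libraries, which placed it above 81.1% of tested genes. Next came Igfbp5, at 1.27 and 1.74 CPM per kilobase, and Fgf2, at 1.01 and 1.17. Vegfa stood above Igfbp5 in 6 of 6 libraries, whereas Igfbp5 and Fgf2 had overlapping ranges and changed places in 1 library. Fgf2 was in turn above Fgf1 (0.548 and 0.234 CPM per kilobase) in 6 of 6. Below that, neighbours in the order overlapped from library to library: Pdgfa (0.380 and 0.228), Serpinf1 (0.174 and 0.321), Igf1 (0.125 and 0.197), Lif (0.164 and 0.116), Bdnf (0.120 and 0.0762) and Cntf (0.0203 and 0). Fgf1 stood above 6.71% of tested genes, and the other 6 above 3.35% or fewer. Merged exons count every annotated isoform, 9904 bases for Igf1, so a gene that uses few of its exons reads too low on this scale.

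**Figure D1:**
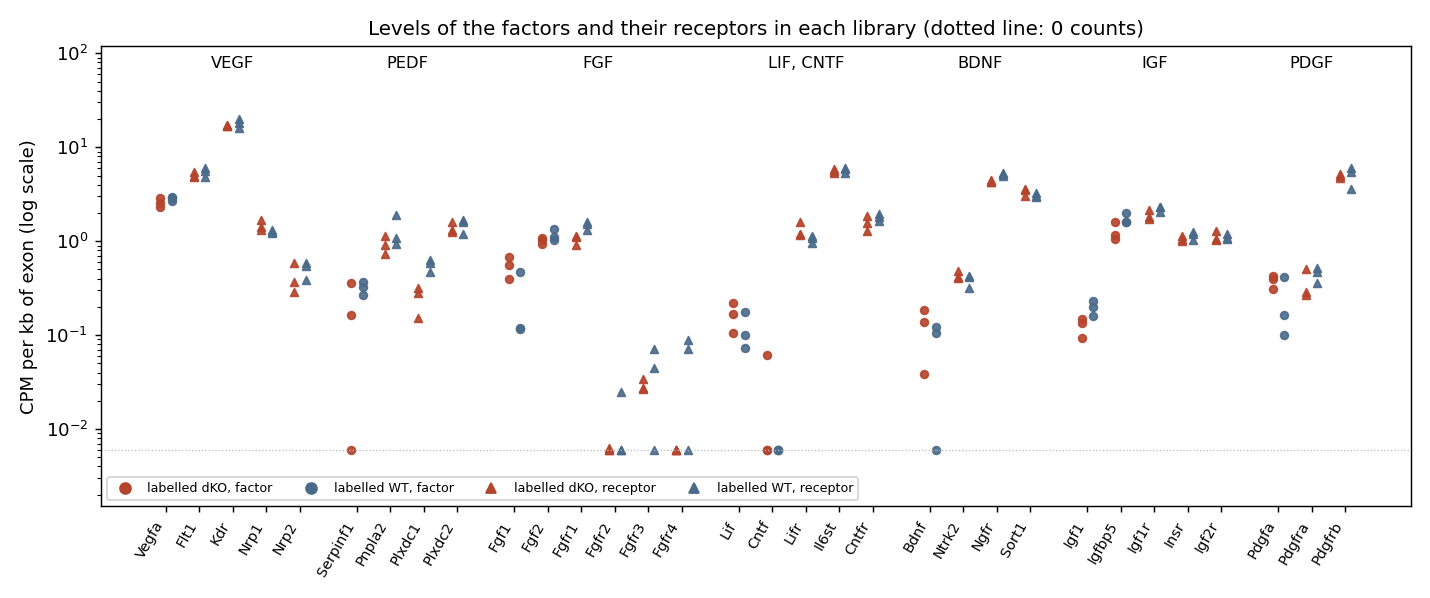
CPM per kilobase of merged exon, on a log axis, of the factors (circles) and of receptors for them (triangles) in each library, dKO-labelled in red to the left of WT-labelled in blue, with libraries at 0 counts drawn on the dotted line. Kdr is the highest, at 16.9 and 18.02 CPM per kilobase on average, and Il6st, Flt1, Pdgfrb and Ngfr lie above every factor shown.

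**Figure D2:**
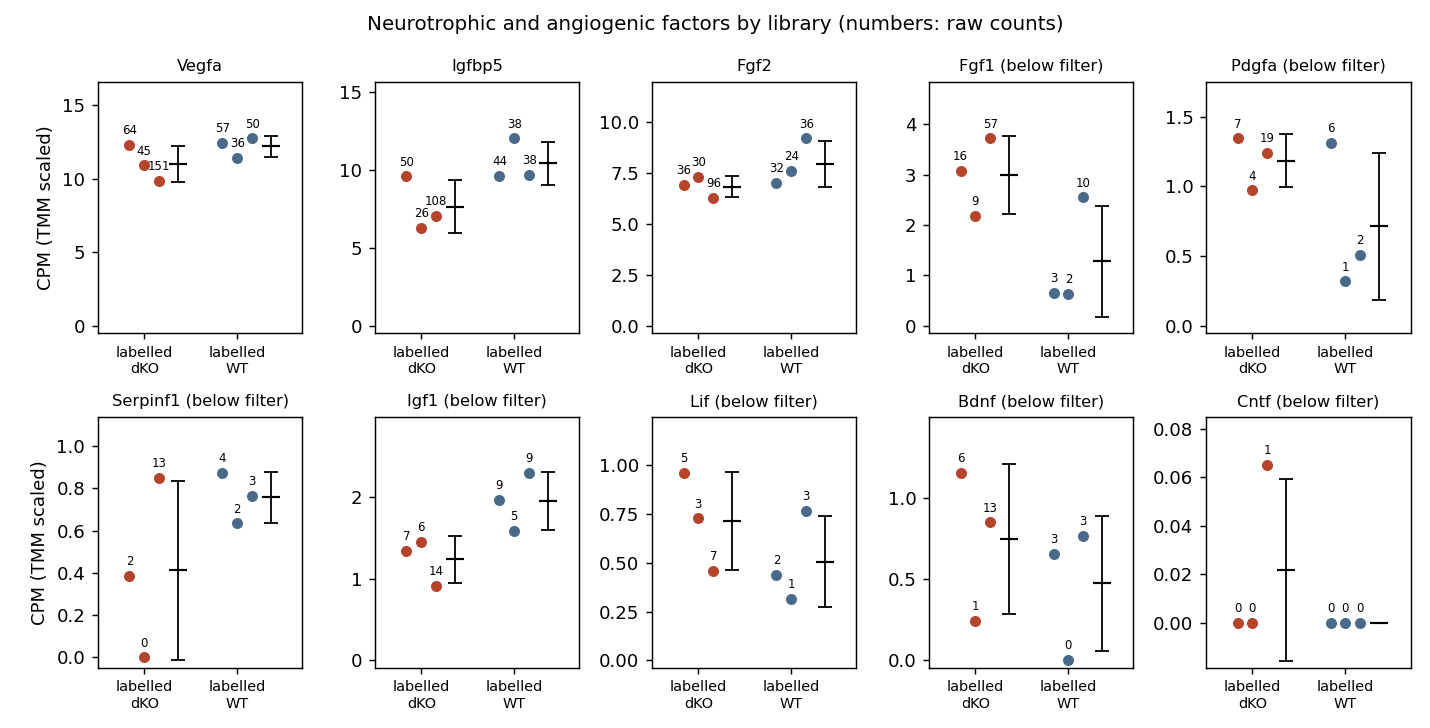
CPM of each factor in each library, with dKO-labelled libraries in red to the left of WT-labelled libraries in blue, replicates 1 to 3 from left to right, raw counts above the points, and bars for the mean ± SD (n = 3). Vegfa, Igfbp5 and Fgf2 lie between 6.27 and 12.8 CPM, and the other factors at or below 3.72 CPM, on axes that differ between panels.

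Of the 3 tested factors, none passed the threshold in either direction (edgeR's quasi-likelihood test, a p below 0.05 after Benjamini-Hochberg adjustment), where 1.92% of 8444 genes passed, 0.734% higher and 1.18% lower in the dKO-labelled libraries. DESeq2 and limma-voom also called 0 of the 3. At an unadjusted p under 0.05 there was 1, Igfbp5, where 12.5% of all tested genes were. All 3 had negative values, with a median log2 fold change of -0.25, against -0.00072 over all tested genes, of which 49.8% were positive. Scaling by library totals moved the median of all genes by 1.21 and made all 3 values positive, though below that shift. None of the 3 lay wholly above the WT-labelled libraries, as 8.66% of tested genes did, and 1, Igfbp5, lay wholly below them, as 8.31% did.

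The promoter windows of the 3 factors that carry these reads are shown because they are the only members whose level the libraries measured well enough to test. The RefSeq promoter table used here matched 9 of the 10 genes, and the sequences below, on GRCm38.p6, run 5′ to 3′ on the gene's strand from 250 bases before to 50 bases after an annotated start. Capitals mark matches to the hypoxia response core (ACGTG or GCGTG), the GC box (GGGCGG) and the TATA box (TATAAA), searched on both strands.
Vegfa, chr17:46032328-46032627, minus strand: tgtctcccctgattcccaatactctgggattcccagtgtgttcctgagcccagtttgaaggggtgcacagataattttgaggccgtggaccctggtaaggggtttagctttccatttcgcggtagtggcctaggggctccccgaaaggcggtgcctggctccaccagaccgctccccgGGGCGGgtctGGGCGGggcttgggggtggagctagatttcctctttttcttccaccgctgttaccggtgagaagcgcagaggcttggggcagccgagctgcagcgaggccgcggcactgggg
Igfbp5, chr1:72874816-72875115, minus strand: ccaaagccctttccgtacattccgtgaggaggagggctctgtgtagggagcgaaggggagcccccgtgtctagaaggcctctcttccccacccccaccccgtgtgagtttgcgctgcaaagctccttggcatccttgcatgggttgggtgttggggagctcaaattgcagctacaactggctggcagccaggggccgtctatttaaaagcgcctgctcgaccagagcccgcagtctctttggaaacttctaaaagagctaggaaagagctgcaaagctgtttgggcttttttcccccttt
Fgf2, chr3:37348403-37348702, plus strand: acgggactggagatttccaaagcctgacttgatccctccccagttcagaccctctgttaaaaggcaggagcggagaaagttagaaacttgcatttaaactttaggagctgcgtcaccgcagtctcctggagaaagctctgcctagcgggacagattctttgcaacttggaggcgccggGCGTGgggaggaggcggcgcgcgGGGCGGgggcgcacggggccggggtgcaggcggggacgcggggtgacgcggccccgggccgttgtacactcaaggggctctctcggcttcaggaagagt
The Vegfa window held 2 GC boxes, and the Fgf2 window held 1 GC box and 1 hypoxia core. The Igfbp5 window held none of these letters. Over 32544 windows of the same length, 35.9% held a GC box, 44.0% a hypoxia core and 13.6% a TATA box. GC content was 62.0% for Vegfa, 56.3% for Igfbp5 and 62.7% for Fgf2, against a median of 53.0%. Of the 2 Vegfa starts in the table, the one nearest the GENCODE gene start is shown, and the Fgf2 start lies 307 bases from that of GENCODE. A match to these letters is a description of the window and not evidence of binding. Bases outside the windows were not searched, so a motif missing here may lie elsewhere near the gene.

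Vegfa (ENSMUSG00000023951, chromosome 17, 46016993 to 46032369 in GRCm38, minus strand) had 64, 45 and 151 counts in the dKO-labelled libraries and 57, 36 and 50 in the WT-labelled libraries. Scaled, these were 12.3, 10.9 and 9.86 CPM in dKO replicates 1 to 3, against 12.5, 11.4 and 12.8 CPM in WT replicates 1 to 3. The groups overlapped. Vegfa averaged 11.02 ± 1.2 CPM in the dKO-labelled and 12.2 ± 0.708 CPM in the WT-labelled libraries (SD, n = 3 each), with a log2 fold change of -0.20 ± 0.16 (SE, edgeR adjusted p = 0.682). The 95% interval of the fold was 0.698 to 1.09. Of its receptors, Kdr (VEGFR2), which carries the angiogenic signal, was at 153 ± 2.22 CPM in the dKO-labelled and 163 ± 17.3 CPM in the WT-labelled libraries. Flt1 (VEGFR1), a high-affinity receptor that can act as a decoy, was at 68.7 ± 4.36 and 73.9 ± 7.84 CPM (SD, n = 3 each). Per kilobase, Kdr exceeded its ligand, at 16.9 and 18.02 CPM.

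In the VEGF and angiopoietin list none of 6 tested members of 13 passed (edgeR), and the median log2 fold change was -0.097. The smallest p belonged to the VEGF co-receptors Nrp2 (-0.30 ± 0.24, SE, adjusted p = 0.690) and Nrp1 (0.17 ± 0.15, 0.735). Vegfd was at 0 counts.

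The hypoxia response list, which holds regulators and targets of the oxygen-sensing factors that also control Vegfa, had 1 of 14 tested members lower and none higher, with a median log2 fold change of -0.050. The member that fell was Epas1, which encodes HIF-2α, an oxygen-regulated transcription factor abundant in endothelium. It had 16.7, 12.9 and 13.8 CPM in dKO replicates 1 to 3, against 23.2, 23.4 and 20.7 CPM in WT replicates 1 to 3, without overlap, as was the case for Igfbp5. Its log2 fold change was -0.64 ± 0.13 (SE, edgeR adjusted p = 0.000879), and DESeq2 did not call it (0.0644). Hif1a, which encodes the related oxygen-regulated factor HIF-1α, was at 42.5 ± 1.08 and 40.2 ± 2.20 CPM (SD, n = 3 each) and did not pass (0.815). Of the 14 tested members, 5 had positive values. Among them, Vhl (0.53 ± 0.18, SE, edgeR adjusted p = 0.135) and Egln1 (0.39 ± 0.19, 0.380) did not pass. Both lay wholly above the WT-labelled libraries, as 8.66% of tested genes did. The sum of endothelial markers differed in the same direction as Epas1, at 10.4 to 12.6 CPM in the dKO-labelled and 15.95 to 18.7 CPM in the WT-labelled libraries, with 1 of 4 tested members lower (Ptprb, -1.23, adjusted p = 0.0266) and none of 7 at 0. Of these 4, 2 had positive values, and Pecam1 did not pass (0.15, 0.893). The VEGF receptors Kdr (-0.089, edgeR adjusted p = 0.776) and Flt1 (-0.11, 0.735) did not pass either. Each lay above the whole endothelial marker sum, Kdr at 153 and 163 CPM and Flt1 at 68.7 and 73.9 CPM in the dKO-labelled and WT-labelled libraries. Which cells their reads came from was not tested. The part of endothelial cells in the Epas1 result was not tested.

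Serpinf1 (ENSMUSG00000000753, chromosome 11, 75409769 to 75422701, minus strand), the anti-angiogenic counterpart of Vegfa, was near the limit of detection. It had 2, 0 and 13 counts in the dKO-labelled and 4, 2 and 3 in the WT-labelled libraries, and the scaled values overlapped. The pooled ratio of dKO-labelled over WT-labelled counts was 0.788, with a 95% exact binomial interval of 0.323 to 2.04 that covers counting error only. Vegfa therefore outnumbered Serpinf1 by 17.3 to 1 in the summed counts of the dKO-labelled libraries and by 15.9 to 1 in those of the WT-labelled libraries. Per library, with 0.5 added to both counts because dKO replicate 2 had none for Serpinf1, the ratio was 25.8, 91.0 and 11.2 in dKO replicates 1 to 3 and 12.8, 14.6 and 14.4 in WT replicates 1 to 3. The dKO-labelled values spread on both sides of the WT-labelled ones. The mean log2 ratio was 4.90 ± 1.52 and 3.80 ± 0.106 (SD, n = 3 each), a difference of 1.10 (two-sided exact permutation p = 0.4, where 3 against 3 libraries cannot go below 0.1). Without dKO replicate 2 the difference was 0.29, and without dKO replicate 3 it was 1.80.

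Angiogenesis inhibitors and PEDF receptors showed none of 7 tested members of 11 past the threshold (edgeR), with a median log2 fold change of -0.064. The smallest p belonged to Sparc, a matrix protein that limits growth factor signalling, at 194 ± 10.6 CPM in the dKO-labelled and 164 ± 9.25 CPM in the WT-labelled libraries (SD, n = 3 each; 0.25 ± 0.10, SE, adjusted p = 0.225). The dKO-labelled values lay wholly above the WT-labelled ones, as they did for 8.66% of tested genes, and limma-voom called Sparc (0.0279). Adamts1 (0.18 ± 0.10, SE), a secreted protease that cuts matrix proteoglycans, followed with an adjusted p of 0.485.

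Fgf2 (ENSMUSG00000037225, chromosome 3, 37348346 to 37410108, plus strand), a survival factor for photoreceptors that Müller glia make after injury, had 36, 30 and 96 counts in the dKO-labelled libraries and 32, 24 and 36 in the WT-labelled ones. In CPM these were 6.91, 7.28 and 6.27, against 6.99, 7.60 and 9.18. The groups overlapped through dKO replicate 2 and WT replicate 1. The log2 fold change was -0.25 ± 0.20 (SE, edgeR adjusted p = 0.669), and the 95% interval of the fold was 0.636 to 1.10. Nudt6, transcribed from the opposite strand, shares 640 bases (9.44%) of the Fgf2 exons and had 16 counts in all, and the strand setting of the counting is not stated.

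Fgf1 (ENSMUSG00000036585, chromosome 18, 38838673 to 38929472, minus strand) was the only factor whose pooled count ratio had an interval wholly above 1. It had 16, 9 and 57 counts in dKO replicates 1 to 3 and 3, 2 and 10 in WT replicates 1 to 3. Scaled, these were 3.07, 2.18 and 3.72 CPM, against 0.656, 0.634 and 2.55 CPM. WT replicate 3 lay above dKO replicate 2, so the groups overlapped, while the other WT-labelled libraries lay below all 3 dKO-labelled ones. The pooled ratio was 2.58 (95% exact binomial interval 1.48 to 4.83, counting error only). Fgf1 did not reach the low-count filter, which asks for the minimum count in 3 libraries, and so has no value in the fit used here. It was tested in 7 of 16 alternatives and passed in 2. With all 6 libraries its adjusted p missed the threshold by little, at 0.0526 with no filter over 21821 genes (log2 fold change 1.36 ± 0.39, SE), 0.0504 with a filter of 1 CPM in 3 libraries, and 0.0629 without the ribosomal RNA row. It passed without WT replicate 3, its highest WT-labelled library (2.31, 0.00803), and without dKO replicate 2, its lowest dKO-labelled library (1.44, 0.0370), and did not without WT replicate 1 (0.94, 0.460) or WT replicate 2 (1.08, 0.275). Without dKO replicate 1 or dKO replicate 3 it was not tested. In the fits with 1 library left out, Fgf1 thus met the filter only through the group where it is high. Its passes there are descriptions and not support for a difference. Fgf1 was thus called in no setting that kept all 6 libraries, and its 2 calls came from leaving out 1 library. None of its exonic bases is shared with another gene in GENCODE M21.

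Rod and RGC markers were higher in sum in the dKO-labelled libraries, as was Fgf1 in pooled counts. Rod markers summed to 349, 434 and 401 CPM in dKO replicates 1 to 3 and 186, 186 and 211 CPM in WT replicates 1 to 3, with 7 of 10 tested members higher. RGC markers summed to 38.8, 37.9 and 39.1 CPM, against 26.7, 32.3 and 32.1 CPM, with 1 of 5 tested members higher. Nefl was the called RGC marker (1.63, edgeR adjusted p = 3.96e-05), while Isl1 lay wholly below the WT-labelled libraries without passing (-0.65, 0.138). Over all tested genes, 8.31% lay wholly below. Within the dKO-labelled group, replicate 2 had the highest rod sum and the lowest Fgf1. Within the WT-labelled group, replicate 3 had the highest of both. Amacrine markers summed to 4.77 to 8.74 CPM in the dKO-labelled and 1.27 to 2.40 CPM in the WT-labelled libraries, with Slc6a9, the only one tested, higher. Among astrocyte markers, summing to 165 to 171 and 145 to 168 CPM, Gfap was higher (0.69, edgeR adjusted p = 4.04e-05) and was 1 of 3 tested. Bipolar cell markers went the other way, at 127 to 129 CPM in the dKO-labelled and 174 to 186 CPM in the WT-labelled libraries, with 4 of 6 tested members lower. So did cone markers, at 3.85 to 8.74 and 10.5 to 13.0 CPM, with the only tested member lower. Over all tested genes, 0.734% were called higher and 1.18% lower. The part of these cells in the Fgf1 counts was not tested.

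**Figure D3:**
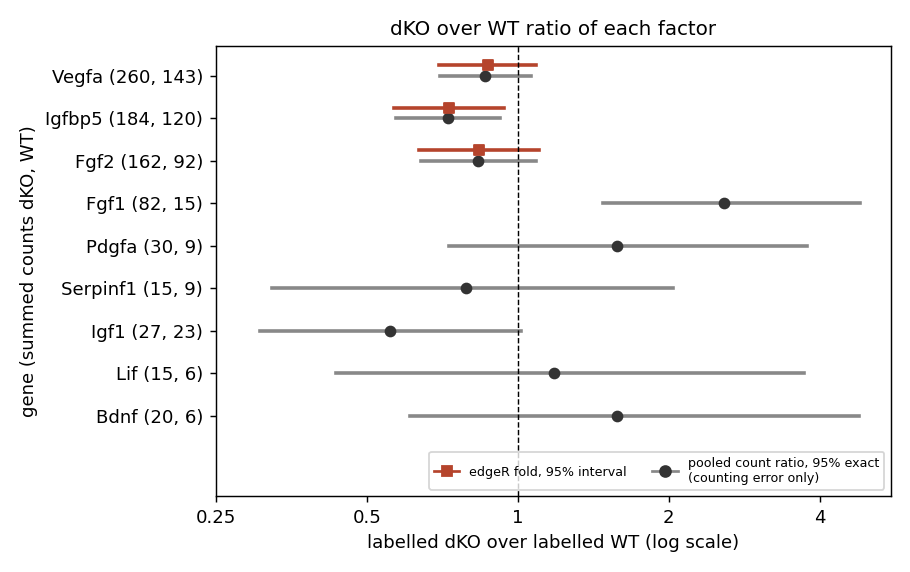
Ratio of dKO-labelled over WT-labelled libraries for 9 factors on a log axis, with summed counts of each group beside the name and Cntf left out because it had no WT-labelled count. Red squares are edgeR folds and grey lines with black points are pooled count ratios, each with its 95% interval. The pooled interval covers counting error only and not the spread between libraries. It lies wholly above 1 for Fgf1, whose groups overlapped, and wholly below 1 for Igfbp5, which did not pass the threshold.

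Among FGF receptors and targets, 1 of 8 tested members of 20 was lower and none higher, with a median log2 fold change of 0.12. The lower one was Fgfr1, the receptor for both Fgf1 and Fgf2 and the only one of the kinase receptors Fgfr1 to Fgfr4 with more than a few counts (Fgfr2, Fgfr3 and Fgfr4 had 1, 5 and 0 counts in the dKO-labelled and 1, 3 and 2 in the WT-labelled libraries). It had 11.1, 10.9 and 9.08 CPM in the dKO-labelled and 15.7, 15.2 and 13.0 CPM in the WT-labelled libraries, without overlap. The log2 fold change was -0.56 ± 0.16 (SE, edgeR adjusted p = 0.0351), and the call was lost with DESeq2 (0.600), with no filter (0.111), with the replicate number as a block (0.0832), with dKO replicate 3 thinned to the depth of the others (0.227) and without dKO replicate 3 (-0.41, 0.425), WT replicate 1 (0.251) or WT replicate 2 (0.108). The feedback genes that FGF signalling induces did not pass: Dusp6, a phosphatase of ERK, was at 0.23 ± 0.14 (SE) and Spry2, an inhibitor of receptor signalling, at 0.17 ± 0.26.

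Lif and Cntf were barely detected, whereas their receptor chains were readily measured. Lif (ENSMUSG00000034394, chromosome 11, 4257557 to 4272514, plus strand) had 5, 3 and 7 counts in the dKO-labelled and 2, 1 and 3 counts in the WT-labelled libraries, a pooled ratio of 1.18 (0.433 to 3.72, 95% exact, counting error only). Cntf (ENSMUSG00000079415, chromosome 19, 12763660 to 12765632, minus strand) had 1 count, in dKO replicate 3. Its single count cannot be read as absence of the transcript, because 847 bases (78.9%) of the Cntf exons also belong to Zfp91 on the same strand, which had 547 counts, and how reads in shared exons were assigned is not stated. Il6st, which encodes gp130, was at 62.5 ± 3.27 CPM in the dKO-labelled and 63.7 ± 4.75 CPM in the WT-labelled libraries, and Cntfr, the CNTF-binding chain, at 4.38 ± 0.795 and 5.001 ± 0.398 CPM (SD, n = 3 each). Of the gp130 list, none of 10 tested members of 17 passed (edgeR), and the median log2 fold change was 0.032. Socs3, the STAT3-induced inhibitor of this pathway, had the smallest p, at 13.1, 16.5 and 15.2 CPM in dKO replicates 1 to 3 and 11.4, 13.0 and 9.95 CPM in WT replicates 1 to 3 (0.40 ± 0.15, SE, adjusted p = 0.214). The dKO-labelled values lay wholly above the WT-labelled ones, as they did for 8.66% of tested genes. Lifr, the LIF receptor chain, was next (0.27 ± 0.16, 0.509).

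Bdnf (ENSMUSG00000048482, chromosome 2, 109674700 to 109727007, plus strand), which supports RGC survival, had 6, 1 and 13 counts in the dKO-labelled and 3, 0 and 3 in the WT-labelled libraries. The values overlapped, and the pooled ratio of 1.58 had an exact interval of 0.610 to 4.796. Its receptor Ntrk2 was at 8.35 ± 0.767 and 7.48 ± 1.18 CPM (SD, n = 3 each; 0.12 ± 0.19, SE, adjusted p = 0.856). Among neurotrophins and GDNF-family genes, 1 of 5 tested members of 18 was lower and none higher, with a median log2 fold change of 0.018. Gdnf and Pspn were at 0 counts. The lower gene was Ptn (pleiotrophin), a heparin-binding growth factor of glia and vessels. It had 9.40, 9.71 and 10.9 CPM in the dKO-labelled and 13.5, 16.8 and 15.6 CPM in the WT-labelled libraries, without overlap (-0.55 ± 0.15, SE, edgeR adjusted p = 0.0311). The call was lost with DESeq2 (0.374), with no filter (0.0992), with dKO replicate 3 thinned (0.0525) and when any library other than WT replicate 1 was left out (0.0564 to 0.167).

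Igfbp5 (ENSMUSG00000026185, chromosome 1, 72857932 to 72874884, minus strand) had the lowest unadjusted p of the tested factors. It had 50, 26 and 108 counts in dKO replicates 1 to 3 and 44, 38 and 38 in WT replicates 1 to 3, or 9.60, 6.31 and 7.05 CPM against 9.61, 12.04 and 9.69 CPM. All 3 dKO-labelled values lay below the WT-labelled ones, but dKO replicate 1 and WT replicate 1 were almost equal. Igfbp5 averaged 7.65 ± 1.72 and 10.4 ± 1.38 CPM (SD, n = 3 each), a log2 fold change of -0.46 ± 0.18 (SE, unadjusted p = 0.0159, edgeR adjusted p = 0.242). It did not pass in any of 16 alternatives, where the adjusted p was 0.130 to 0.998. Relative to the summed Müller glia markers, it was at 2.56 ± 0.548 in the dKO-labelled and 3.62 ± 0.526 in the WT-labelled libraries per 1000 CPM of marker (SD, n = 3 each), with an exact two-sided permutation p of 0.1, the smallest that 3 against 3 allow. By the same measure Vegfa was at 3.70 ± 0.435 and 4.22 ± 0.204, and Fgf2 at 2.29 ± 0.236 and 2.74 ± 0.399 (SD, n = 3 each; exact permutation p = 0.2 for each). The Müller sums themselves averaged 2980 and 2890 CPM, so dividing by them could change little. The endothelial marker sum given above differed in the same direction, though 2 of its 4 tested markers had positive values, and its part was not tested. Pericyte markers summed to 130 to 139 CPM and 120 to 128 CPM, in the other direction.

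Igf1 (ENSMUSG00000020053, chromosome 10, 87858265 to 87937042, plus strand) had 7, 6 and 14 counts in the dKO-labelled and 9, 5 and 9 in the WT-labelled libraries. Scaled, these were 1.34, 1.46 and 0.914 CPM, against 1.97, 1.58 and 2.30 CPM, and the groups did not overlap. The pooled ratio was 0.555, and its exact interval of 0.306 to 1.01 includes 1. Of 5139 genes with 20 to 100 counts in all, 5.84% likewise had every dKO-labelled value below the WT-labelled ones. With no filter the edgeR adjusted p was 0.747 (-0.78 ± 0.45, SE). Microglia markers, the cells known to make Igf1, summed to 691 to 719 CPM in the dKO-labelled and 671 to 737 CPM in the WT-labelled libraries, with none of 9 called. In the IGF list, none of 8 tested members of 15 passed (edgeR), with a median log2 fold change of -0.068. The IGF receptor Igf1r was at 31.8 ± 3.83 and 37.4 ± 2.60 CPM (SD, n = 3 each; -0.26 ± 0.11, SE, adjusted p = 0.290), and the insulin receptor Insr at -0.12 ± 0.14 (0.789).

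Pdgfa (ENSMUSG00000025856, chromosome 5, 138976014 to 138997370, minus strand) had 7, 4 and 19 counts in the dKO-labelled and 6, 1 and 2 in the WT-labelled libraries. WT replicate 1, at 1.31 CPM, lay among the dKO-labelled values of 1.34, 0.971 and 1.24 CPM, and the pooled ratio of 1.58 had an exact interval of 0.730 to 3.77. The antisense gene 6330403L08Rik shares 813 bases (26.1%) of the Pdgfa exons and had 20 counts in all, against 39 for Pdgfa, so reads there cannot be told apart without a strand setting. None of 3 tested genes of 6 in the PDGF list passed (edgeR), and the median log2 fold change was -0.017. Pdgfra, the receptor for Pdgfa on astrocytes, was at 3.55 ± 1.34 and 4.52 ± 0.860 CPM (SD, n = 3 each; -0.48 ± 0.28, SE, adjusted p = 0.506), and the pericyte-recruiting ligand Pdgfb at 0.43 ± 0.35 (0.677).

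**Figure D4:**
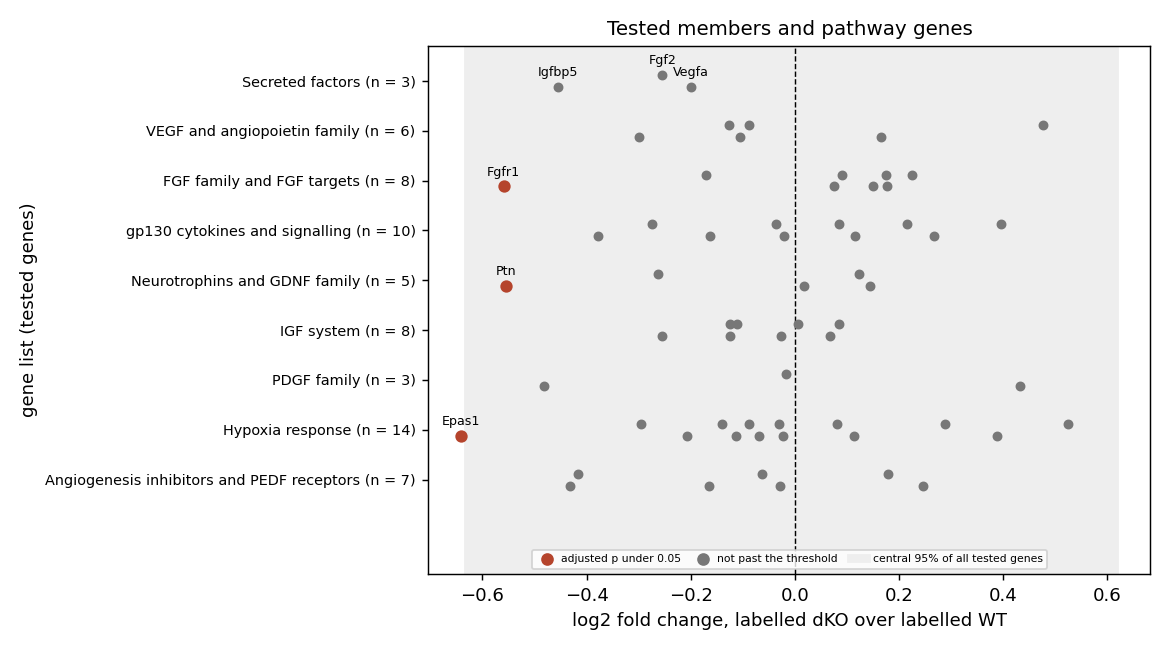
Log2 fold change (dKO-labelled over WT-labelled) of the tested factors and of tested genes on 8 pathway lists, 1 point per gene, with genes past the threshold in red and named. The grey band is the central 95% of all 8444 tested genes. Fgfr1, Ptn and Epas1 are the 3 called genes, at -0.56, -0.55 and -0.64.

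Across the 8 lists together, the called genes were Fgfr1, Ptn and Epas1, 1 each of 8, 5 and 14 tested members of their lists. Each was lower in the dKO-labelled libraries and lay wholly below the WT-labelled ones. Over all 8444 tested genes, 1.18% were called lower and 0.734% higher, and 8.31% lay wholly below. The lists were chosen with earlier results of these data known, so their counts are descriptions and not independent tests.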

How the data were processed

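Counts of reads per Ensembl gene were deposited for 6 libraries of total RNA from cells sorted as RGCs (dKO and WT, 3 each). They are raw counts that the authors had not normalized, judged from whole values and unequal column totals. The submitters' processing notes name STAR 2.7.0d, DESeq2 1.22.2 and the build GRCm38. Which program counted reads, with which annotation and strand setting, is not given in the sources used here. Per the labels' protocols, the libraries came from a stranded kit for total RNA.

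Positions, exon lengths and overlaps came from GENCODE M21 (55480 of 55573 IDs found). After filterByExpr (minimum count 10, minimum total 15), TMM factors were computed in edgeR 4.0.16 under R 4.3.3. The two-sided quasi-likelihood F test had group as its only term, and genes with an adjusted p under 0.05 were called. Standard errors are the log2 fold change over the square root of F. CPM of genes below the filter use the same library sizes. Pooled ratios divide summed counts by summed effective library sizes. Exact binomial intervals of these ratios cover counting error only. Alternatives used DESeq2 1.42.0, limma 3.58.1, other scalings and filters, thinning and single libraries left out. Figures used matplotlib 3.10.9.

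The members, the lists and the tests were chosen with earlier results of these data known. The rule names all members, each called gene of a pathway list or, with none, the 2 with the smallest p, and 2 correlates of the 2 most abundant members. Other genes named were chosen after their values were seen. The Vegfa to Serpinf1 ratio needed 0.5 added to both counts. Chi-square per degree of freedom between replicates was 1.15 to 3.16, above counting noise, and each was counted once. Each library pooled retinas of 3 mice, and the labels do not say whether mice or sorts were shared between libraries, so the spread behind a p may be partly technical.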

Additional observations from a re-analysis of the deposited data

How the results depend on the processing

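Vegfa, Igfbp5 and Fgf2 passed in none of the 16 alternatives run on them. Library-total scaling, which moved the median of all genes by 1.21, turned signs: it gave 0.99 for Vegfa, 0.96 for Fgf2, 0.73 for Igfbp5, 0.88 for Nrp2, 0.61 for Fgfr1, 0.68 for Ptn, 0.91 for Igf1r, 1.09 for Insr, 0.68 for Pdgfra and 0.55 for Epas1, all below that shift. Over all genes it called 3 higher and 0 lower, DESeq2 26 higher and 26 lower, against 62 and 100; an adjusted p under 0.1 gave 108 higher. Leaving out 1 library gave 29 to 71 genes higher and 61 to 115 lower, with 29 and 61 without WT replicate 1 and 66 lower without dKO replicate 3. It gave 0 to 1 members higher and 0 lower. The higher member was Fgf1 in each case, which met the filter there only through dKO-labelled libraries. The Vegfa to Serpinf1 log2 difference ranged from 0.29 to 1.80, and was 0.86 with 1 added in place of 0.5, chosen after seeing the data. Vegfa was at -0.068 and Fgf2 at -0.16 without dKO replicate 3, and Fgf2 at -0.13 without WT replicate 3. Pathway genes that did not pass moved by over 1.5 times as well when 1 library was left out: Nrp2 ranged from -0.51 to -0.13, Nrp1 from 0.079 to 0.30, Lifr from 0.16 to 0.38, Igf1r from -0.34 to -0.15, Insr from -0.23 to -0.074, Pdgfra from -0.68 to -0.27, Pdgfb from 0.21 to 0.79 and Adamts1 from 0.089 to 0.26. With the replicate number as a block, 58 genes were higher and 100 lower, and of the 3 tested members and 13 pathway genes refitted with it, Fgfr1 lost its call and no other call changed. Same-numbered libraries correlated by 0.013 to 0.029 in their deviations, so the numbers were not taken as pairs. The causes of these differences were not tested. Depth limits the 7 untested factors, which had 1 to 97 counts.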

Other observations

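Some receptors on the neurotrophin and GDNF list were too sparse to test. Ret, the signalling receptor for the GDNF family, had 10, 6 and 32 counts in dKO replicates 1 to 3 and 1, 2 and 4 in WT replicates 1 to 3, which pooled to a dKO-labelled over WT-labelled ratio of 3.24, with exact bounds of 1.46 and 8.49 for counting error. Its scaled values of 1.92, 1.46 and 2.09 CPM lay above those of 0.218, 0.634 and 1.02 CPM. Of 5139 genes with 20 to 100 counts in all, 376 likewise had every dKO-labelled value above the WT-labelled ones. Ntrk3, the receptor for neurotrophin 3, had 8, 2 and 16 counts against 0, 1 and 2, and its groups overlapped. Both stood below the filter and were picked after their values were seen. The RGC marker sum was higher in the dKO-labelled libraries too, with 1 of 5 tested markers called, and its part was not tested.

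Plxdc1, a receptor for PEDF, went the other way, at 1.54, 0.728 and 1.37 CPM in the dKO-labelled and 3.06, 2.85 and 2.30 CPM in the WT-labelled libraries. With 32 counts in each group its pooled ratio was 0.473, with exact bounds of 0.280 and 0.797. Of 5139 genes with 20 to 100 counts in all, 5.84% likewise lay wholly below the WT-labelled libraries. Plxdc1 too was untested and chosen after its values were seen.

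Over the 6 libraries, the tested genes whose log2 CPM followed Vegfa most closely were Rtf1 and Zup1 (Pearson r 0.98 and 0.97), and those that followed Igfbp5 were Iffo2 and Cxcl9 (0.98 each). An r above 0.9 was found for 30 of 8443 genes with Vegfa and for 92 with Igfbp5. The named genes were picked as the highest of these. How many would pass 0.9 by chance with 6 libraries was not worked out. All points share the same libraries, depth and scaling.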
